A study of Mus musculus with 4 samples.

Results

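XCR1-deficient (KO) type 1 conventional dendritic cells (cDC1) were set against wild-type (WT) cDC1 after both had received lipopolysaccharide (LPS) and the chemokine XCL1. The comparison rests on 2 of the study's 4 mouse gene arrays, chosen by genotype and treatment in the labels, with 1 array a side. The labels give the C57BL/6 strain and an age of 10 weeks for all groups, LPS at 100 ng/ml and recombinant mouse XCL1 at 100 ng/ml. The other 2 arrays, from WT and KO cells given LPS at the same dose without XCL1, are used only as a second look at the same genes. The sources used here do not state how Xcr1 was inactivated, which tissue the cells came from, how many mice stood behind an array or how long the cells were treated. With 1 array a side there is no replicate, no error and no p-value for any difference below, and the number of arrays limits the precision.

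XCR1 is a receptor of the G protein-coupled family that signals through Gi proteins, and cDC1 are the immune cells best known for carrying it. Its ligand XCL1 is secreted by activated CD8 T cells and natural killer (NK) cells and draws cDC1 towards them, and cDC1 in turn cross-present antigen to CD8 T cells. LPS is sensed by Toll-like receptor 4 (TLR4), which switches on NF-kB targets such as cytokine genes and, through type I interferon, the interferon-stimulated genes that restrict viruses.

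All values are log2 array signals, and a difference is the KO value minus the WT value, so that 1 unit is a 2-fold change. Of 16801 named genes outside the X and Y chromosomes, 10477 reached a signal limit of 5.43 on 1 or both of the 2 arrays, and 9680 on both. The limit is the median of the deposited values. Genes are called higher or lower when the arrays were at least 1.5-fold apart, which is 0.58 on the log2 scale. By that rule 170 genes (1.62%) were higher in KO and 193 (1.84%) were lower, 363 in all (3.46%). At 2-fold 23 genes were higher and 15 lower, and 1 gene in each direction, Ifi208 and Xcr1, passed 4-fold. The median difference over all genes was -0.04, the middle 50% of genes lay between -0.20 and 0.11, and the SD across genes was 0.27. Of the 10477 genes, 4485 (42.8%) lay above 0 and 5987 below it. Each count of list members above or below 0 is to be read beside these numbers. When each array was centred on the median of its own genes past the signal limit, the median became 0.07 and the split moved from 46.8% higher among the called genes to 79.0%, with 324 genes higher and 86 lower. Centring thus adds 0.11 to each difference and to each list median below, and calls that it ends are given beside the gene.

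**Figure D1:**
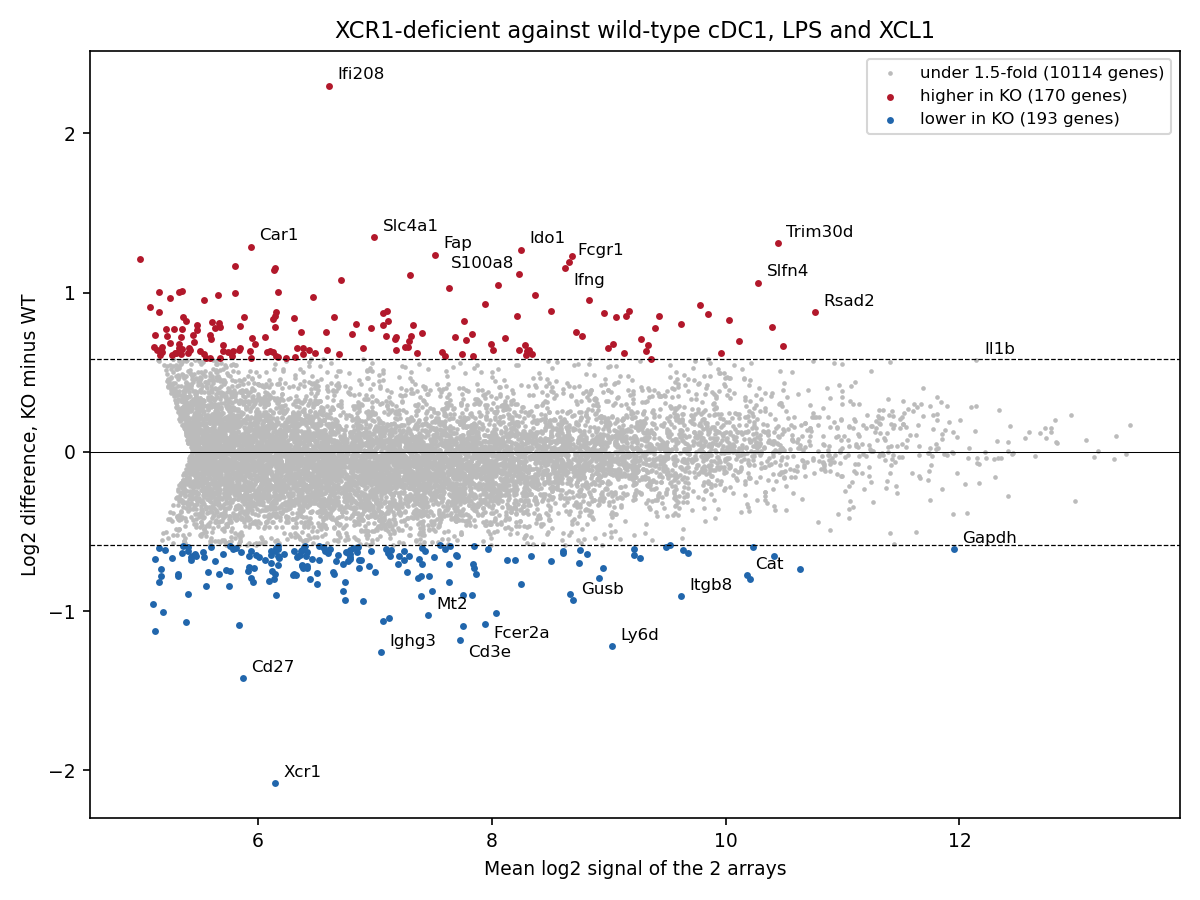
Log2 difference between KO and WT with LPS and XCL1 (vertical axis, KO minus WT) against the mean log2 signal of the 2 arrays (horizontal axis), with 1 point for each of the 10477 genes. Red points are the 170 genes higher in KO and blue points the 193 lower, outside dashed lines at 1.5-fold. Ifi208 at 2.30 and Xcr1 at -2.08 lie farthest from 0, and among bright genes Trim30d at 1.31 stands highest.

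Xcr1 itself had a signal of 7.19 in WT and 5.11 in KO with LPS and XCL1, and 6.42 and 5.54 with LPS alone. WT lay above KO in both pairs, and the KO array with XCL1 was below the signal limit, so the transcript was at least 3.38-fold lower there. Where in the gene these probes lie against the inactivated stretch is not known here. Xcl1, the ligand's own gene, gave 7.93 and 7.70, a difference of -0.23. Sex-linked transcripts did not match the labels. Xist, the RNA made from the inactive X chromosome of females, was at 7.91 and 7.95 on the WT arrays and at 4.57 and 4.64 on the KO arrays. The Y-linked genes Eif2s3y, Uty and Kdm5d, which have near copies on the X chromosome, lay between 7.01 and 8.89 on all 4 arrays, although the labels give every sample as female. Genes of the X and Y chromosomes were left out for this reason, 311 of them past the limit and 16 of those 1.5-fold apart. The 2 array name prefixes in the labels also follow genotype, with 0 shared between WT and KO. Array name prefix, Xist signal and genotype therefore cannot be told apart in any difference below. Whether the samples also differed in sex is not known here, so a part of sex cannot be told apart either. Within 5 Mb of Xcr1, 49 other genes were measured with a median difference of 0.02. Of these, Ccr8 and Xirp1 were higher and 0 were lower, and both were below the signal limit in WT and short of 1.5-fold against it, at 0.43 and 0.41.

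Several transcripts by which cDC1 are recognised were above the signal limit on both arrays. Markers of other cell types were past it as well, as given below. Batf3 and Irf8, the transcription factors on which the subset depends, gave 6.78 in WT and 6.95 in KO and 10.01 and 10.16. Flt3, the receptor for the growth factor of dendritic cells, gave 10.09 and 10.26, and the adhesion molecule gene Cadm1 7.50 and 7.21. The cross-presentation gene Wdfy4 gave 9.15 and 8.99, Naaa 8.05 and 7.81, and the RNA sensor gene Tlr3 7.14 and 6.96. None of these differed 1.5-fold. Itgae, which encodes CD103, was below the limit on both arrays, at 5.23 and 5.37, and Clec9a was not analysed here. Of 22 cDC1 markers past the limit 0 were higher and 3 lower, with a median of -0.04 (0.07 with centring), like the median of all genes. The lower ones were Xcr1, the scavenger receptor gene Cd36 (8.47 and 7.79, a difference of -0.68) and Gcsam (7.12 and 6.45, -0.67), and of these 3 only Xcr1 stayed past 1.5-fold with centring.

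Interferon genes lay mostly on the higher side in KO. Across all interferon lists combined, 113 genes were past the limit, 22 were higher in KO and 0 lower, 98 of the 113 lay above 0, and their median was 0.30 against -0.04 for all genes. Beginning with the ligands, Ifng had a signal of 8.05 in WT and 9.20 in KO, which is 2.22-fold higher, and 8.26 and 9.21 with LPS alone. Both KO arrays therefore lay above both WT arrays for the gene of interferon gamma, the cytokine that NK cells, T cells and some activated myeloid cells release. The type I ligand genes past the limit were not 1.5-fold apart. Ifna1 gave 7.38 and 7.86, Ifna14 6.31 and 6.77, and Ifna4 7.45 and 6.87, the last a difference of -0.58 just short of the threshold. Ifnb1 was below the limit on both arrays, at 3.79 and 3.69.

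Of 15 genes for interferon receptors and their signalling, 0 were higher and 0 lower, and their median was -0.03 (0.08 with centring). The receptor genes Ifnar1 and Ifngr1 gave 10.23 and 10.16, and 9.36 and 8.92. Stat2, a subunit of the factor that carries the type I signal to the nucleus, gave 10.67 and 11.07, and Irf7, which amplifies interferon production, 11.48 and 11.89. No gene of this list was thus 1.5-fold apart, and its median lay near that of all genes.

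Type I interferon-stimulated genes were the largest of the interferon lists. Of 53 past the limit, 11 were higher and 0 lower, 51 lay above 0, and the median difference was 0.37. With LPS alone 6 were higher, and the median was 0.28. Trim30d, a member of a family of ubiquitin ligases, stood first with 9.79 in WT and 11.10 in KO, 2.48-fold higher, against 10.43 and 10.83 with LPS alone. The WT array with XCL1 was the lowest of the 4 for this gene. Slfn4, a Schlafen gene of myeloid cells, gave 9.75 and 10.81, and Cmpk2, a mitochondrial nucleotide kinase induced together with its neighbour Rsad2, gave 9.32 and 10.24. Rsad2, which encodes the antiviral enzyme viperin, gave 10.32 and 11.20, 1.84-fold higher. The other genes past 1.5-fold encode antiviral effectors or their relatives, from Phf11d at 0.88 and Mx2 at 0.85 through Ifit1bl2 and Ifit2, each at 0.82, and the virus tether Bst2 at 0.78 to Ifit1bl1 at 0.73 and Mx1 at 0.71. Of the 11, Ifit1bl2 was below the limit in WT, at 4.97, and against the limit it differed by 0.37, which left 10. Isg15, the ubiquitin-like modifier, gave 10.28 and 10.71, a difference of 0.43 that did not reach the threshold. Epsti1 and Ly6e, each at -0.04, were the members below 0. Centring raised the count of higher members from 11 to 18. Genes of these families have near copies, such as Trim30a (0.43) beside Trim30d, whose probes may share signal.

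The guanylate-binding proteins and immunity-related GTPases, which attack the vacuoles of intracellular microbes, lay above 0 in 12 of 12 members past the limit. Of these 3 were higher and 0 lower, the median was 0.49, and with LPS alone it was 0.25 with 0 called. Gbp8 gave 8.36 in WT and 9.31 in KO, a difference of 0.95. Gbp7, which gave 9.61 and 10.44, differed by 0.83, and Gbp3, with 7.91 and 8.55, by 0.64. Gbp4 at 0.58 and Igtp at 0.52 fell just short, and centring took the count from 3 to 7. In the PYHIN family, nuclear and cytosolic proteins several of which sense DNA, 2 of 9 were higher and 8 of 9 above 0, with a median of 0.23. Ifi208 had the largest difference of all genes measured. Its signal was 5.46 in WT, close to the limit, and 7.76 in KO, 4.92-fold higher, and it was 4.86 and 8.10 with LPS alone. Both WT arrays were thus near or below the limit and both KO arrays well above it. Ifi204 gave 10.16 and 10.82, a difference of 0.66. Aim2, the sensor that assembles an inflammasome, gave 8.29 and 8.14.

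Promoters of 6 of the higher interferon-stimulated and GTPase genes are shown as examples that hold the core of the interferon-stimulated response element, the site bound by the STAT and IRF factors. The core was searched as GAAA, any 2 bases and GAAA again, on both strands and with overlapping matches kept, from 250 bases before to 50 after the start sites in RefSeq (GRCm38.p6). Printed below are the bases from 30 before the outermost match up to the start site, 5′ to 3′ on the gene's strand, with the matches in capitals.

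Trim30d (chr7:104507850-104507920, minus strand): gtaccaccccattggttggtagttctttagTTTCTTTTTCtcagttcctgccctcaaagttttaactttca

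Rsad2 (chr12:26456453-26456602, minus strand): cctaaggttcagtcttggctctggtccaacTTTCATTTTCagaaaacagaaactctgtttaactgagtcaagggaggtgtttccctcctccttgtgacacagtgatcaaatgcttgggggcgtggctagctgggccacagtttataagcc

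Gbp7 (chr3:142530253-142530335, plus strand): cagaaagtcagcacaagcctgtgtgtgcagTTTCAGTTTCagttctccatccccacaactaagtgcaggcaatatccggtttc

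Gbp3 (chr3:142559969-142560043, plus strand): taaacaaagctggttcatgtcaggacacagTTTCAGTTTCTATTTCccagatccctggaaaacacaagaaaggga

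Ifit1bl2 (chr19:34640744-34640843, minus strand): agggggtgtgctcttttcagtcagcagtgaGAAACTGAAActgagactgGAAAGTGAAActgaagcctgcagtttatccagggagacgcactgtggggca

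Bst2 (chr8:71537473-71537632, minus strand): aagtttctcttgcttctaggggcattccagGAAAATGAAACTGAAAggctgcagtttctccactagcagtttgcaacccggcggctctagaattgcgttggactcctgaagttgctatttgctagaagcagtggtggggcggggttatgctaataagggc

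The match of Trim30d began 41 bases before the start site and that of Gbp7 53 bases before it, while that of Rsad2 lay farther out, at 120. Gbp3 and Bst2 held 2 overlapping matches each, and Ifit1bl2 held 2 that were apart. A promoter was in the RefSeq table for 8465 of the 10477 genes. The core was found in 3.44% of all 32851 promoters and in 4.05% of the genes measured. It was in 20 of 39 type I interferon-stimulated genes (51.3%), in 7 of 7 GTPase genes and in 6 of 8 PYHIN genes, but in only 2 of 11 interferon-gamma effector genes. Among genes higher in KO 15 of 132 held it (11.4%) and among genes lower 5 of 152 (3.29%). Interferon-stimulated genes with the core had a median difference of 0.46 and those without it 0.29. A gamma-activated site, searched as TTCNNNGAA on both strands, was in 8.3% of all promoters, in 4 of 7 GTPase genes, in 7 of 39 interferon-stimulated genes, in 1 of 11 interferon-gamma effector genes (Fcgr1) and in 0 of 8 PYHIN genes. Some matches of the 2 motifs can share bases, and a match describes letters in this window only. Of the higher interferon-stimulated genes searched but not printed, Ifit1bl1 held the core and Ifit2 held only the gamma-activated site. Slfn4, Cmpk2 and Phf11d held neither motif in this window. Mx1, Mx2, Gbp8, Ido1, Ido2, Cxcl11 and Nos2 were also higher but had no promoter in the RefSeq table, so they were not searched.

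Effector genes of interferon gamma were also higher, 5 of 19 with 0 lower, 18 of 19 above 0 and a median of 0.29 (0.11 with LPS alone). Ido1, which encodes the enzyme that starts tryptophan breakdown and restrains T cells, gave 7.62 in WT and 8.89 in KO, 2.41-fold higher, and 7.82 and 8.67 with LPS alone. Its neighbour and relative Ido2 gave 7.12 and 8.14, and 7.15 and 8.20 with LPS alone. For both genes the 2 KO arrays lay above the 2 WT arrays. Fcgr1, the high-affinity receptor for IgG, gave 8.06 and 9.26, 2.29-fold higher, and 8.06 and 9.06 with LPS alone. Nos2, which makes nitric oxide, gave 6.23 and 7.07, and the chemokine gene Cxcl11 8.73 and 9.61. Its relatives Cxcl9 and Cxcl10 differed by 0.34 and 0.31. Ciita, the switch of MHC class II genes, gave 8.52 and 8.55.

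The wider pathway around Ido1 lay near the middle of all genes. Of 18 genes for tryptophan, arginine and tetrahydrobiopterin metabolism 4 were higher and 0 lower, with a median of -0.06 (0.05 with centring). The 4 were Ido1, Ido2, Nos2 and Gchfr, the regulator of tetrahydrobiopterin synthesis, whose WT signal of 4.86 was below the limit and whose difference against the limit was only 0.15. Kynu, a later enzyme of the tryptophan route, gave 8.19 and 7.97, and Arg2, an arginase, 6.91 and 6.61. Among Fc and complement receptors 2 of 14 were higher and 2 lower. Fcgr4, an activating receptor for IgG, gave 5.70 and 6.42, a difference of 0.72, beside Fcgr1. The lower ones, Fcer2a at -1.08 and Cr2 at -0.66, are receptors of B cells.

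**Figure D2:**
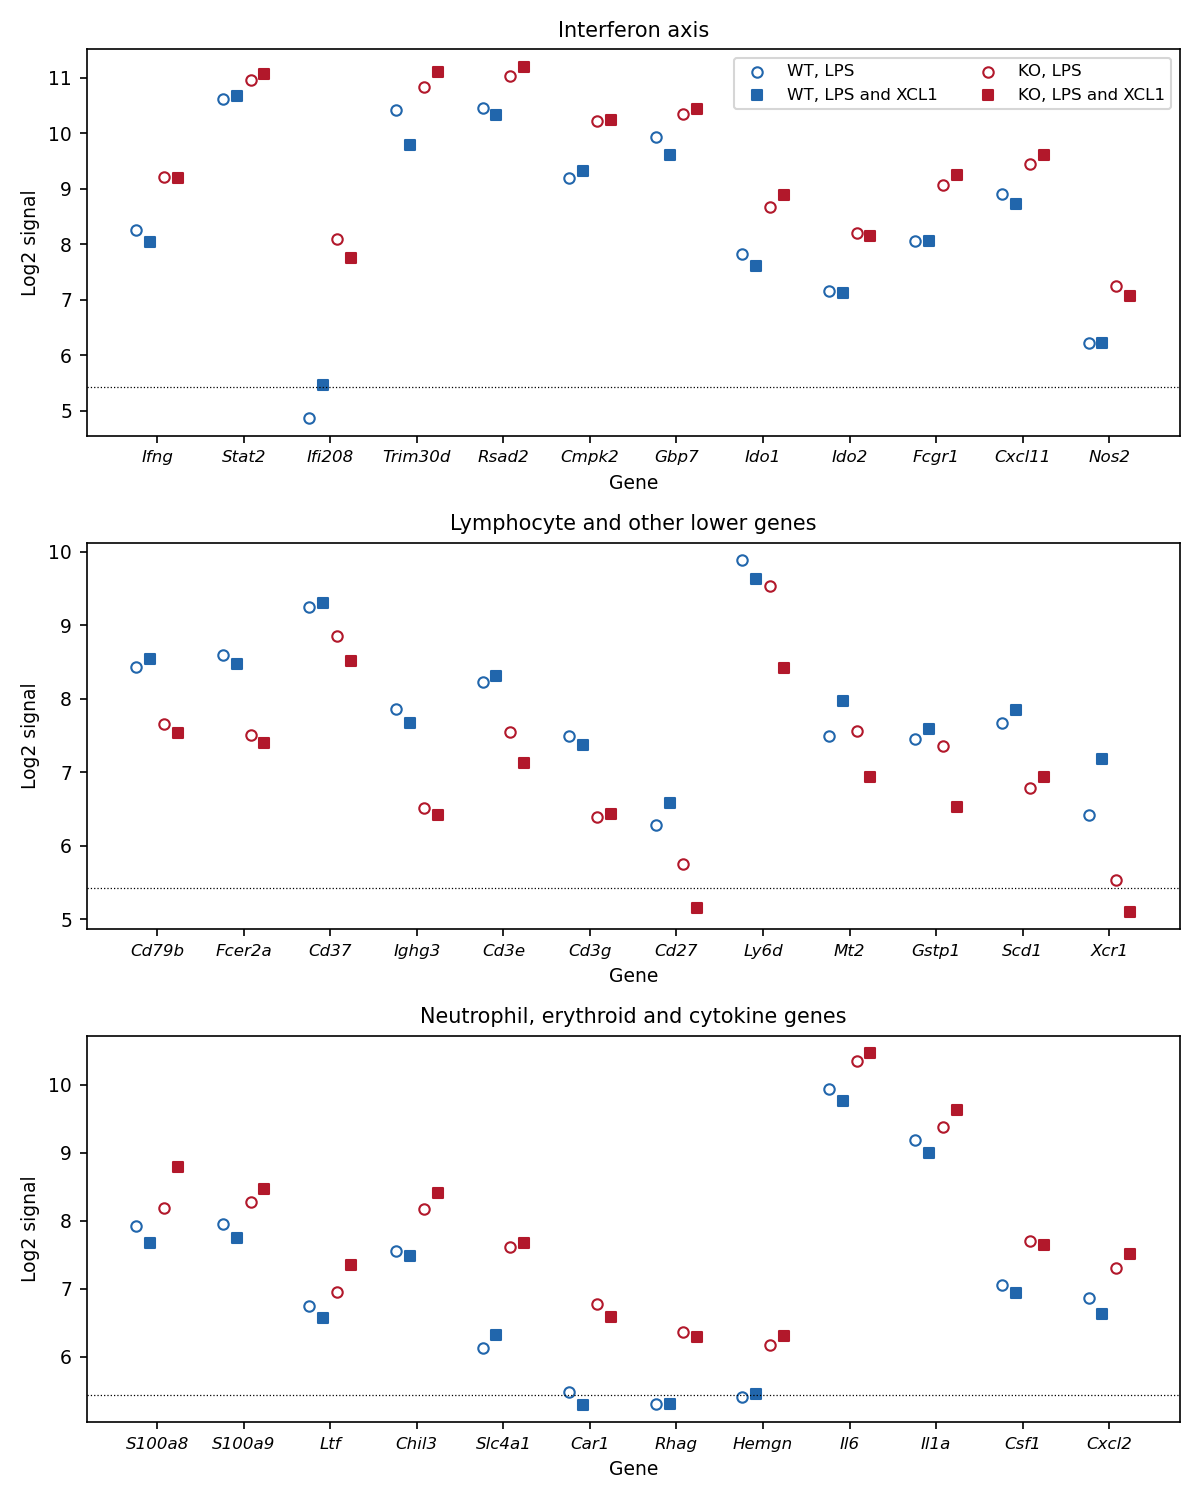
Log2 signal (vertical axis) of 36 genes on each of the 4 arrays, with WT in blue, KO in red, open circles for LPS alone and filled squares for LPS and XCL1. The dotted line is the signal limit of 5.43. For Ifng, Ifi208, Ido1, Ido2 and Fcgr1 both red symbols lie above both blue ones, while the filled red square of Mt2, Gstp1 and Ly6d lies alone below the other 3 symbols.

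Inflammatory cytokine genes lay mostly above 0. Of 18 past the limit 4 were higher and 0 lower, 13 were above 0, and the median was 0.24 (0.05 with LPS alone). Csf1, a growth factor of macrophages, gave 6.94 in WT and 7.64 in KO, a difference of 0.70. Il6 gave 9.77 and 10.47, a difference of 0.69, and Il1a, an alarm cytokine that reached 9.63 in KO, differed by 0.64. Il1rn, the natural inhibitor of interleukin 1, gave 9.07 and 9.66, a difference of 0.59 that cyclic loess took to 0.58, just under the threshold. Il1b, at 11.86 and 12.43, fell just short with 0.57. Il12b, whose product is a cytokine typical of cDC1 that drives T helper 1 responses, gave 11.88 and 11.38, a difference of -0.51 on the other side of 0, and Tnf gave 10.05 and 9.85. Centring took the count of higher cytokine genes from 4 to 7.

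Among 20 CC and CXC chemokine genes 3 were higher and 1 lower, with a median of 0.17 that became 0.05 against the limit and 0.08 with cyclic loess. Besides Cxcl11, these were Cxcl2, which attracts neutrophils and gave 6.64 and 7.51, and Ccl2, which attracts monocytes and was at 6.38 in WT and 0.62 higher in KO. Ccl17, a ligand of CCR4, was the lower one at 8.92 and 8.30, a difference of -0.63 (-0.52 with centring), and Ccl22, another ligand of the same receptor, gave 13.14 and 12.83. Of 14 chemokine receptor genes Ccr8 was higher and Xcr1 lower. Ccr7, by which mature dendritic cells home to lymph nodes, gave 12.72 and 12.85, and Cxcr4 9.97 and 10.05. Ccr8 gave 4.85 and 5.86 but, against the limit, a difference of only 0.43.

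The signal chain downstream of a chemokine receptor was called in single genes. Among 26 genes for Gi proteins, their regulators (RGS) and arrestins 1 was higher and 1 lower, with a median of -0.02 (0.09 with centring). Prkar2b, a regulatory subunit of protein kinase A, gave 6.17 in WT and 7.25 in KO, a difference of 1.08, and its difference with LPS alone was 0.96. Gnai1, a Gi subunit, gave 5.79 and 5.14, a difference of -0.66 that became -0.36 against the limit and -0.55 with centring. Of 28 immediate early and MAPK feedback genes 0 were higher and 0 lower, and Egr1 gave 6.92 and 6.52. Among 32 genes for integrins and migration Itga1, a collagen receptor chain, was higher (5.67 and 6.68) and Itgb8, whose product helps to activate TGF-beta, was lower (10.07 and 9.16, a difference of -0.91).

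Among the lists of Toll-like receptor, NF-kB and co-stimulation genes 1 gene was called, and it does not encode a sensor of LPS. Of 20 Toll-like receptor and adaptor genes 1 was higher, Tlr5, the flagellin receptor, with 5.59 and 6.30, and 0 were lower. Tlr4 was below the limit on both arrays. Ly96, its partner MD-2, gave 9.90 and 9.36, a difference of -0.54. Of 20 NF-kB subunits and targets 0 were higher or lower, 16 were above 0 and the median was 0.12 (0.06 with cyclic loess). Of 20 co-stimulation and checkpoint genes 0 were higher or lower, and their median was 0.00 (-0.04 with cyclic loess). Cd80 gave 12.46 and 12.44, Cd86 11.88 and 11.86, Cd40 11.45 and 11.49, and Cd274, which encodes PD-L1, 11.28 and 11.51.

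Antigen presentation was called in single genes as well. In MHC class I presentation 1 of 22 was higher and 0 lower, with a median of 0.08. That gene was H2-Q10, a non-classical class I gene with near copies, at 8.07 and 9.30 (1.23), and a second probe set of the same gene differed by only 0.32. Tap1 and B2m gave 11.19 and 11.39, and 13.35 and 13.30. In MHC class II presentation 1 of 15 was higher and 1 lower. H2-DMb2, a subunit of the peptide exchanger, gave 7.54 and 8.14 (0.60), and H2-Eb2 7.66 and 6.90 (-0.76), while the classical chains H2-Aa, H2-Ab1 and H2-Eb1 each differed by less than 0.1. Ifi30, the thiol reductase of the antigen-processing compartment, gave 11.73 and 11.15, a difference of -0.58 that passed 1.5-fold only with cyclic loess, at -0.64. Among 30 proteasome genes Psma5 alone was higher, at 5.45 and 6.24.

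Lymphocyte transcripts lay mostly on the lower side in KO. Across the B cell, plasma cell, T cell and NK lists 73 genes were past the limit, 0 were higher and 13 lower, 63 lay below 0, and the median was -0.30. In a bulk sample fewer cells of a type and less RNA per cell cannot be told apart, which holds for every cell type below. Of 27 B cell markers 7 were lower, 0 higher and 1 above 0, with a median of -0.41 (-0.33 with LPS alone), and the log2 of their summed signal was 12.93 in WT and 12.48 in KO. Cd79b, a chain of the B cell receptor, gave 8.54 and 7.53, and 8.43 and 7.66 with LPS alone. Fcer2a, the low-affinity IgE receptor CD23, gave 8.48 and 7.40, and 8.59 and 7.50 with LPS alone. For both genes the KO arrays lay below the WT arrays in each pair. The tetraspanin gene Cd37 was lower by the same rule at -0.79, the IgM receptor gene Fcmr at -0.78, the scaffold gene Bank1 at -0.70, Cd79a at -0.69 and the complement receptor gene Cr2 at -0.66. With centring the last 2 were at -0.58 and -0.55, just short of 1.5-fold, which left 5 of the 7. The other defining markers did not pass, with 8.93 and 8.62 for Ms4a1, which encodes CD20, and 8.40 and 8.01 for the lineage factor gene Pax5. These and Cd79a and Cd79b were above the limit on both arrays, and Vpreb3 was the 1 of 28 B cell markers on the array below it. Among 9 plasma cell genes Ighg3, an IgG heavy chain, was lower at 7.68 and 6.42, and 7.86 and 6.51 with LPS alone, and its mean over probe sets differed by -0.41.

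T cell markers were lower in 4 of 21 and higher in 0, with 2 above 0 and a median of -0.30. The log2 of their summed signal was 12.00 in WT and 11.86 in KO. Their differences ran from -1.42 to 0.34, and the brightest signal in the list was 9.87 in WT and 10.21 in KO. With LPS alone 1 was higher and 2 were lower, with a median of -0.33. Cd3e, a chain of the T cell receptor complex, gave 8.32 and 7.13, 2.27-fold lower, and 8.23 and 7.55 with LPS alone. Cd3g, another chain, gave 7.37 and 6.43, and 7.50 and 6.40 with LPS alone. Cd3d was below the limit on both arrays, at 5.40 and 5.02. Cd27, a receptor on T cells and on some B cells, gave 6.58 and 5.16, a difference of -1.42 and of -1.15 against the limit. The adaptor gene Skap1 was at -0.59 (-0.48 with centring). Cd8a, which cDC1 express themselves, gave 9.57 and 9.53. Of 16 NK and innate lymphoid markers 1 was lower, Cd7 at 8.05 and 7.23, and 0 higher, with a median of -0.21. The log2 of their summed signal was 13.18 in WT and 13.32 in KO, so that the sum and the median pointed in opposite directions. Ncr1, the NK receptor NKp46, gave 6.90 and 6.72.

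Plasmacytoid dendritic cell markers, 15 past the limit, were lower in 3 and higher in 1, with a median of -0.26. Against the limit 2 were lower and the median was -0.12. The log2 of their summed signal was 12.72 in WT and 12.76 in KO, so that here too the sum and the median pointed in opposite directions. Ly6d, which marks lymphoid progenitors of plasmacytoid and B cells, gave 9.64 in WT and 8.41 in KO, a difference of -1.22. With LPS alone it gave 9.89 and 9.54, so the KO array with XCL1 was the low one. Cox6a2, a subunit of cytochrome oxidase, was lower too, at 7.75 and 7.05 (-0.71). Dntt, the terminal transferase of lymphoid progenitors, was at -0.74 but at -0.10 against the limit. Siglech, a receptor by which plasmacytoid cells are recognised, gave 8.58 and 8.01, a difference of -0.57. The higher member was Bst2, which is interferon-stimulated as well. Of 11 cDC2 markers Cd209a, which encodes a lectin, was higher at 0.62 (0.41 with the mean of its probe sets) and Cd7 lower.

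Transcripts of granulocytes and of red cells lay mostly above 0. Of 19 neutrophil markers 5 were higher and 0 lower, with a median of 0.28 (0.14 with LPS alone), and the log2 of their summed signal was 11.59 in WT and 11.92 in KO. S100a8, a subunit of the antimicrobial protein calprotectin, gave 7.68 and 8.79, 2.16-fold higher, and 7.92 and 8.18 with LPS alone. S100a9, its partner, gave 7.75 and 8.46, Chil3, a secreted chitinase-like protein, 7.48 and 8.41, and the granule protein gene Ltf 6.57 and 7.35. Stfa2l1 was at 0.65 but at 0.31 against the limit. Of the defining markers Ly6g was below the limit on both arrays, at 4.25 and 4.31, and Mpo, the granule peroxidase, gave 6.53 and 6.48. Of 5 mast cell and basophil markers past the limit Hdc, which makes histamine, was higher at 6.93 and 7.73 (0.80).

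Erythroid genes had 6 of 16 higher and 0 lower, 14 above 0 and a median of 0.40, and with LPS alone 7 higher and a median of 0.55. The log2 of their summed signal was 10.62 in WT and 11.03 in KO. Slc4a1, the anion exchanger band 3 of the red cell membrane, gave 6.32 and 7.67, 2.55-fold higher, and 6.12 and 7.62 with LPS alone. Car1, a carbonic anhydrase, gave 5.29 and 6.58, at least 2.22-fold higher, and 5.48 and 6.77 with LPS alone. Rhag, of the Rh complex, gave 5.30 and 6.30. The KO arrays were thus higher in both pairs, and several of these genes were at or below the limit in WT. Ermap at 0.85, Hemgn at 0.84 and Epb42 at 0.64 completed the group. Against the limit Epb42 was at 0.24, which left 5, and the median was 0.31. Klf1, the lineage's transcription factor, was below the limit on both arrays. Macrophage and monocyte markers were called in 2 of 19, with a median of 0.11. Fcgr1 was the higher one, and Treml4 the lower at 9.10 and 8.40 (-0.70). The defining genes Adgre1 (7.13 and 7.21), Mertk (6.25 and 6.68), Csf1r (7.12 and 6.96) and Cd68 (9.29 and 9.03) were not 1.5-fold apart. The part that any of these cell types played in the interferon or cytokine differences was not tested.

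**Figure D3:**
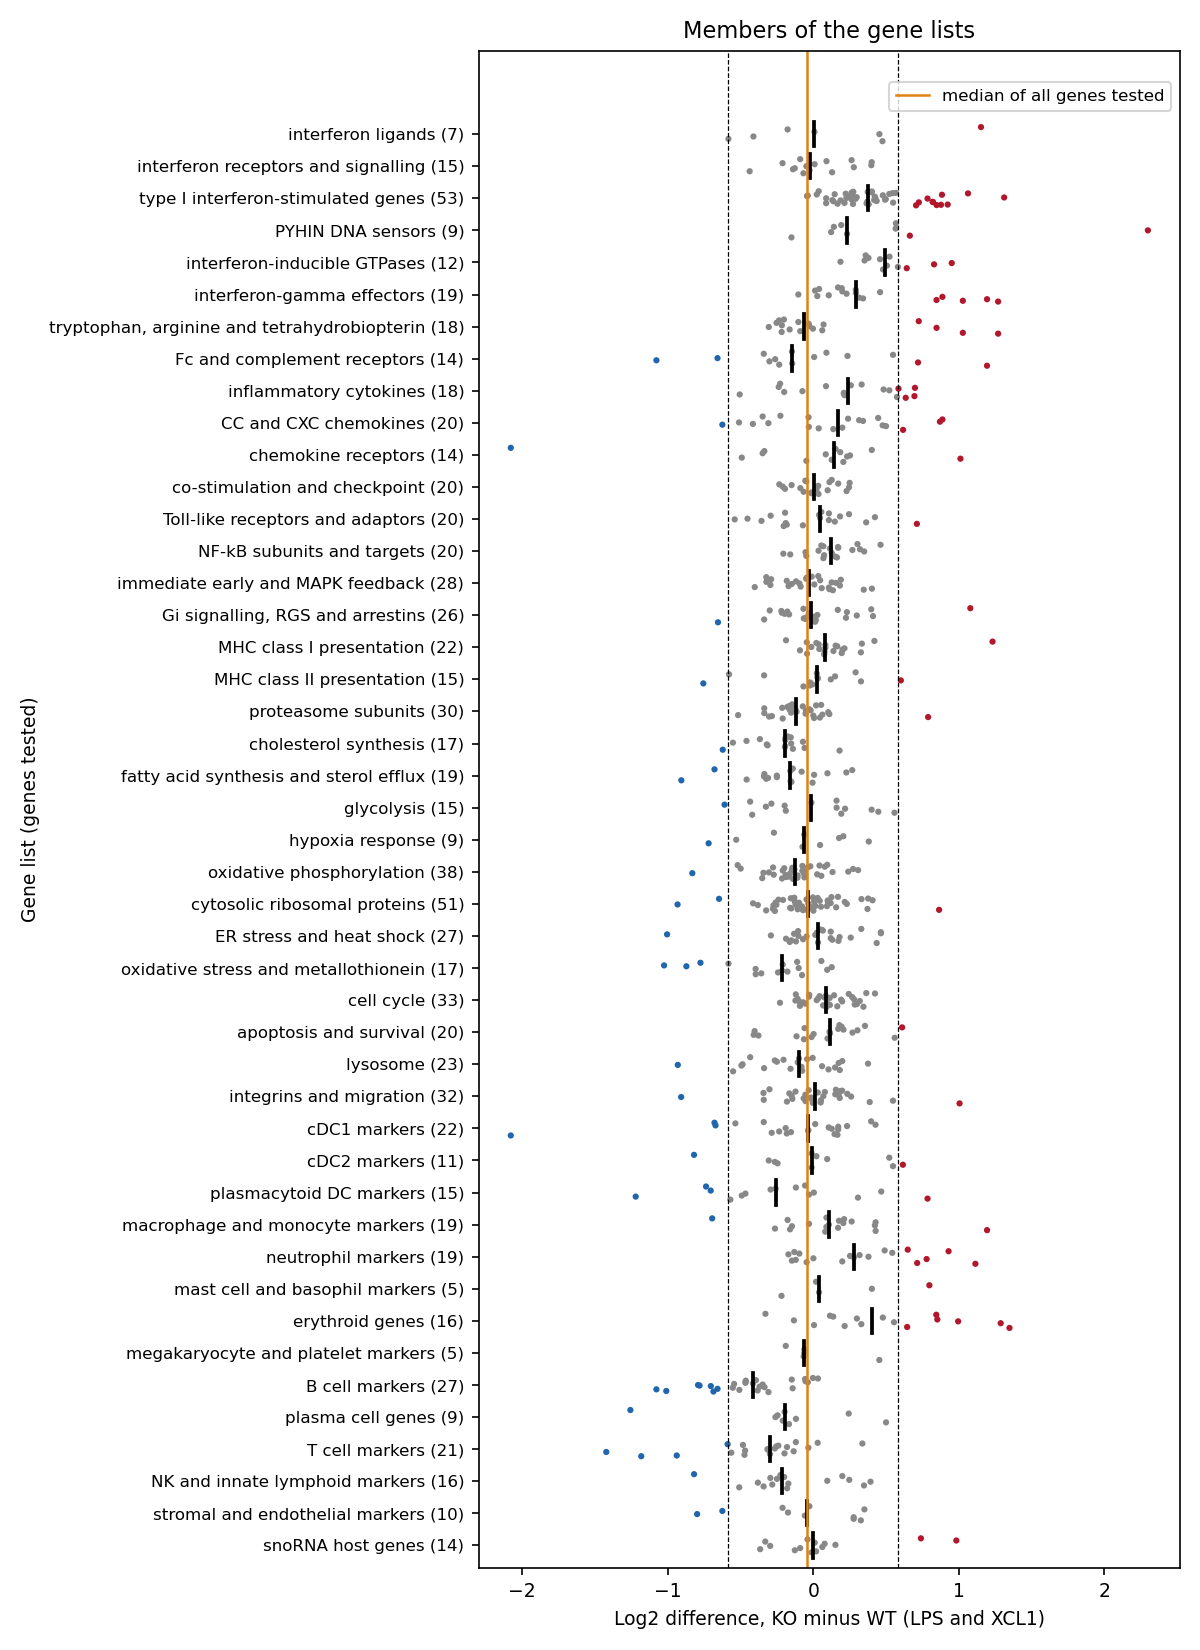
Log2 differences between KO and WT with LPS and XCL1 (horizontal axis) for the members past the signal limit of the 45 gene lists (vertical axis, number of members in brackets). Each point is a gene, red or blue where it passed 1.5-fold (dashed lines), black ticks are list medians and the orange line is the median of all genes, -0.04. The GTPase list has the highest median at 0.49 and the B cell list the lowest at -0.41.

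Most lipid and redox genes had differences below 0, as did 5987 of all 10477 genes. Of 17 cholesterol synthesis genes 1 was above 0, 1 was lower and 0 higher, with a median of -0.19 (-0.29 with LPS alone). Mvk, which encodes mevalonate kinase, was the lower one at 6.89 and 6.26, a difference of -0.62 (-0.51 with centring). Sqle, a later enzyme of the route, gave 8.87 and 8.56, while Hmgcs1 gave 11.23 and 11.41. A sterol regulatory element, searched as TCACNCCAC on both strands, was in 1 of 13 promoters of the list and in 1.24% of all promoters. Scd1, the desaturase that makes monounsaturated fatty acids, gave 7.85 and 6.94, a difference of -0.91, and 7.67 and 6.79 with LPS alone. It and Cd36 were the lower ones of 19 genes for fatty acid synthesis and sterol efflux, with 0 higher.

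Oxidative stress and metallothionein genes had 3 of 17 lower, 0 higher and 3 above 0, with a median of -0.21. Mt2 and Mt1, whose products bind zinc and copper, gave 7.97 in WT and 6.94 in KO, and 7.92 and 7.05. With LPS alone Mt2 gave 7.50 and 7.57, so the WT array with XCL1 was the highest and the KO array with XCL1 the lowest of the 4. Cat, the peroxide-splitting catalase, gave 10.57 and 9.80, a difference of -0.78. Gstp1, a glutathione transferase outside the list, gave 7.60 and 6.53, 2.09-fold lower, and 7.46 and 7.36 with LPS alone.

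Energy metabolism and protein synthesis lists had medians within 0.2 of 0. Among 15 glycolysis genes Gapdh was lower at 12.25 and 11.64 (-0.61, and -0.50 with centring), and its other probe sets differed by -0.69 and -0.51. Hk2, the inducible hexokinase, differed by 0.56. Of 38 oxidative phosphorylation genes 1 was lower, Ndufs7 of complex I at 8.66 and 7.83, with a median of -0.12. Ndufa11, also of complex I, gave 8.30 and 7.20 but -0.52 as the mean of its probe sets. Of 51 ribosomal protein genes, which have many near copies, 1 was higher and 2 lower, with a median of -0.03 (0.07 with centring). The higher one, Rpl7, gave 9.42 and 10.28 but differed by 0.51 as the mean of its probe sets. The lower ones were Rpl34, at 7.21 and 6.28, and Rps23, at 7.01 and 6.36 (-0.54 as a difference with centring). Among 23 lysosomal genes Gusb, a beta-glucuronidase, was lower at 9.16 and 8.22 (-0.93), with a median of -0.10 (0.01 with centring). Of 9 hypoxia genes Egln1, an oxygen-sensing hydroxylase, was lower at 7.31 and 6.59. Of 33 cell cycle genes 0 were higher or lower, with a median of 0.09. Among 27 genes for ER stress and heat shock Sec61b was lower at -1.01, but at -0.26 against the limit, and of 20 apoptosis genes Mlkl, the executioner of necroptosis, was higher at 7.99 and 8.60.

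Of the genes called, 54 of the 170 higher and 38 of the 193 lower belonged to a list. Several of the largest differences lay outside them. Fap, a membrane protease best known from fibroblasts, gave 6.89 in WT and 8.13 in KO, 2.36-fold higher, and 6.87 and 7.70 with LPS alone. Pdpn, the membrane glycoprotein podoplanin, gave 5.56 and 6.72, and Edn1, the precursor of endothelin 1, 6.75 and 7.86. The orphan receptor gene Gpr141 gave 5.57 and 6.71, and Sgcb, a sarcoglycan, 7.53 and 8.58. Of 10 stromal and endothelial markers past the limit 0 were higher and 2 lower, Nid1 at -0.80 and Cdh5 at -0.63 (-0.52 with centring). In the other direction Yes1, a kinase of the Src family, gave 7.64 and 6.60, and Idi2, an isopentenyl isomerase, 6.60 and 5.70 (-0.57 as the mean of its probe sets). Among genes dim in WT, Apol9b, an interferon-inducible apolipoprotein L, was at least 1.94-fold higher with 5.22 and 6.39. Among genes dim in KO, Man1c1, a mannosidase of the Golgi, gave 6.38 and 5.30, and the adhesion gene Icam2 6.10 and 5.36.

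How far single differences can be read depends on signal. Below a mean signal of 6 the call rate was 4.64%, from 6 to 7 it was 3.98%, and from 8 upward it was 2.25% to 2.63%. Of the 170 higher genes 116 were above the limit on both arrays and 127 were still 1.5-fold apart once dim signals had been set to the limit. Of the 193 lower genes 156 and 164 did so. Over 341 genes with several probe sets above the limit on both arrays, their probe sets disagreed on the difference with an SD of 0.22. For called genes 10 second probe sets were above the limit, of which 6 had the same sign and 1 was also 1.5-fold apart. By nuclear chromosome the share called ran from 1.79% on chromosome 15 to 6.08% on chromosome 19, and it was 2.75% on chromosome 9, which carries Xcr1. Of 10 mitochondrial genes 0 were called.

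The same genes with LPS alone give a second look from 2 other arrays, in which the array name prefixes and Xist follow genotype in the same way. In that pair 103 of 10572 genes were higher (0.974%) and 106 lower (1.0%), 209 in all (1.98%). Among genes past the limit in both pairs, 154 were higher with XCL1 and 88 without it, and 40 were higher in both, 26.0% of the former and 45.5% of the latter. For genes lower in KO the numbers were 176 and 101, with 29 in both, 16.5% and 28.7%. Of the 154, 132 had the same sign with LPS alone, with a median of 0.72 with XCL1 and 0.40 without. Of the 176, 161 had the same sign, with medians of -0.68 and -0.31. The share with the same sign over all genes was not counted, so these counts have no base share beside them. The median of all genes was below 0 in each pair, at -0.04 with XCL1 and -0.05 without. The count of genes called in opposite directions was 0.

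A smaller set was called with XCL1 and lay near 0 without it. Of the called genes above the limit, 79 differed with LPS alone by less than 0.22, the SD between probe sets, 26 of them higher and 53 lower. Choosing genes by a call in one pair and not the other does not show that the pairs differ, and no test of that difference was possible. On the lower side stood Gstp1, Mt2 and Mt1, the small GTPase gene Rras (9.12 and 8.22), and Mif, a cytokine that gave 9.32 and 8.59. The beta-glucan receptor gene Clec7a (9.95 and 9.33) and Tnfrsf9, the co-stimulatory receptor 4-1BB (9.53 and 8.91), were among them, and with centring both were short of 1.5-fold, at -0.51 and -0.50. On the higher side Snhg17, a host of small nucleolar RNAs, gave 7.88 and 8.86. Of its other probe sets, one differed by 0.00 and one, below the limit in WT, gave 5.31 and 7.03. Ms4a6d, a membrane protein of myeloid cells, gave 8.52 and 9.39, and the cytokine gene Il1a, the flagellin receptor gene Tlr5 and the granule gene Ltf were also in this set.

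**Figure D4:**
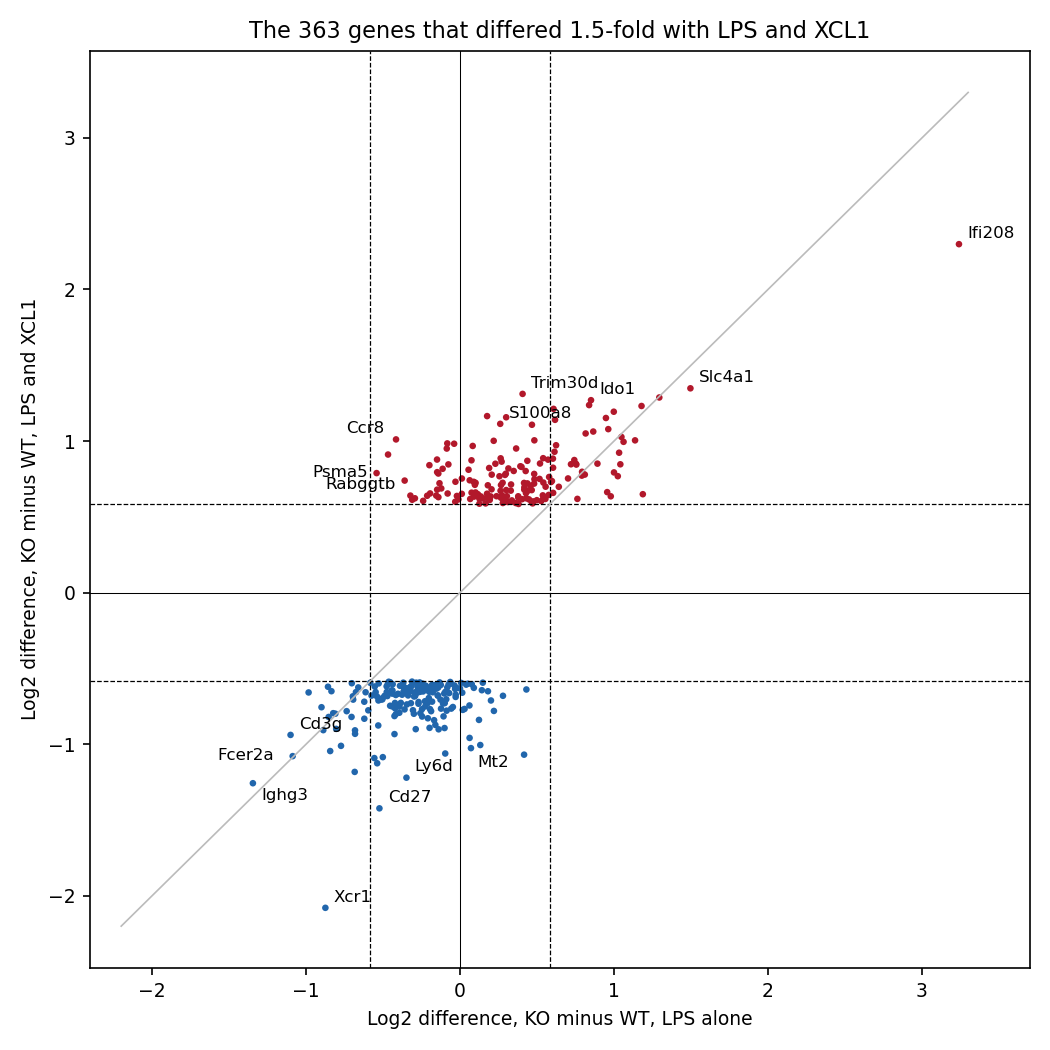
Log2 difference between KO and WT with LPS and XCL1 (vertical axis) against the difference with LPS alone (horizontal axis) for the 363 genes called with XCL1, red for higher and blue for lower, with dashed lines at 1.5-fold and a grey line of equality. Ifi208 and Slc4a1 lie at the upper right in both pairs and Ighg3 at the lower left, while Mt2 lies near 0 on the horizontal axis.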

How the data were processed

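Total RNA was hybridised to MoGene ST 2.0 arrays, per the labels' protocols and descriptions. The authors deposited log2 signals of gene-level probe sets, made with RMA according to the labels. RMA equalises the arrays, so a shift of most genes cannot be seen. The software, version and build of the annotation were not given in the sources used here. Array medians ran from 5.40 to 5.44. Detection flags are lacking in the table, and the limit of 5.43 is not a measured background.

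Of 41345 probe sets, 25335 were in the array's annotation table, 23521 with 1 symbol, 1814 with several and 16010 unnamed here. RefSeq (GRCm38.p6) held 23328 and changed 0 symbols. Probe sets with several symbols, those on X or Y (983), and 4422 for olfactory receptors, receptor segments, small RNAs and predicted genes were dropped, which left 16801 genes, each by its brightest probe set. Differences are those of single arrays and no test was run. Folds from a signal below the limit are written "at least" and use the limit in its place. Differences "against the limit" have dim signals raised to it.

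The comparison, the 45 gene lists and the rules were chosen with earlier results of these data known, so counts of list members support nothing independently. Genes were named by rule as the 15 largest differences in each direction above the limit on both arrays, 6 in each direction with 1 array below it, Xcr1, Xcl1 and up to 5 members of each list (231 genes). Other list members, the neighbours of Xcr1 and the genes near 0 with LPS alone were named after their values were seen. The motif search describes letters only. Alternatives were a 2-fold threshold, no limit and a stricter limit, dim signals raised to the limit, centring, cyclic loess (span 0.7, 3 iterations), the mean of probe sets, and predicted genes kept. Python 3.11.15, pandas 2.3.3, numpy 2.4.6, R 4.3.3 and limma 3.58.1 were used, and the counting was tested on simulated data.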

Additional observations from a re-analysis of the deposited data

Results flagged for a closer look

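For 3 named genes the KO cell arrays lay on opposite sides of the WT arrays in the 2 treatments, each with 1 array a side, and this difference was not tested. Ccr8, a chemokine receptor, differed by 1.01 with LPS and XCL1 and by -0.42 with LPS alone, with signals close to the limit. Psma5, a proteasome subunit, differed by 0.79 and -0.54, and a second probe set, below the limit, differed by -0.16. Rabggtb, a prenyltransferase subunit whose gene hosts small nucleolar RNAs, differed by 0.74 and -0.36.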

How the results depend on the processing

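No paired analysis was possible because each group has 1 array and the result comes from no test. Against 170 higher and 193 lower genes, a 2-fold threshold gave 23 and 15, a stricter limit of 6.91 gave 84 and 100, and centring gave 324 and 86. With no limit 295 were higher and 247 lower. Raising dim signals (127 and 164), cyclic loess (174 and 184), the mean of probe sets (160 and 183) and keeping predicted genes (236 and 227) stayed within 1.5 times. The shift with centring follows from the 0.11 that it adds to every difference, which moved the median from -0.04 to 0.07. Why the medians of genes past the limit differ between the arrays was not tested. In all of the 4 settings of raised dim signals, centring, loess and mean probe sets, 117 of the 170 and 69 of the 193 kept their call. Of 231 named genes, centring took 10 below 1.5-fold and 10 above it, raised dim signals took 6 below, mean probe sets 5 and loess 1, and none of the called ones changed sign. Psma5 and Sec61b had no value as the mean of probe sets, and no platelet marker passed the stricter limit. With that limit the median was 0.48 for cytokine genes and 0.55 for neutrophil markers. Array signal over background is not known, so dim genes are the least certain.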
